A study of Rattus norvegicus with 10 samples.

Results

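The genes described here are 10 transcripts that microglia, the resident macrophages of the brain, are known to raise around amyloid plaques: Trem2, Cd68, Spp1, Lpl, Cst7, Gpnmb, Lgals3, Itgax, Clec7a and Axl. They were taken as a named list and matched by gene symbol. Of the 10 genes, 9 were found among the 17168 genes of the deposited tables and 8 had enough reads to be tested. The expression of Itgax was not analysed here, and only its promoter window is described.

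Each library came from 1 left hippocampus of a male rat of the TgF344-AD strain, 11 months old and perfused before the tissue was frozen. TgF344-AD is a rat model of Alzheimer's disease that carries mutant human amyloid precursor protein and presenilin transgenes under a prion promoter, so both groups carry them, and the labels give the genotype as Tg-AD. The untreated group held 5 rats on plain chow. The RG2833 group held 5 rats whose chow contained 750 mg of RG2833 per kg from 5 months of age for 6 months; RG2833 inhibits HDAC1 and HDAC3, enzymes that remove acetyl groups from histones. One sentence of the submitters' design text calls the drug ibudilast, whereas the treatment labels and the series title name RG2833, and the labels were followed. Non-transgenic rats were not analysed here, so the comparison is of treated with untreated transgenic rats only.

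Microglia that touch amyloid plaques are known to shift from a homeostatic state to one with high levels of lipid-handling, lysosomal and phagocytic genes. The receptor Trem2 senses lipids and signals through the adaptor Tyrobp and the kinase Syk, and full entry into that state is known to need it. Several of the 10 genes are also made outside microglia in the hippocampus: Lpl by neurons, Axl by astrocytes and vessels, and Spp1 by some neurons. In a tissue homogenate, more cells of a type and more RNA per cell cannot be told apart.

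RefSeq promoter windows of the GRCr8 assembly, from 250 bases before to 50 bases after the start of the gene, were found for 8 of the 10 genes. Lpl and Lgals3 had no entry in the table. The windows of the 2 receptors Trem2 and Axl, to which several results below belong, and of the lysosomal genes Cd68 and Gpnmb are shown, 5′ to 3′ on the strand of the gene. Capitals mark a match to the AP-1 element TGACTCA, here always as its reverse complement TGAGTCA.
Trem2 (GRCr8 chr9:20151730-20152029, minus strand): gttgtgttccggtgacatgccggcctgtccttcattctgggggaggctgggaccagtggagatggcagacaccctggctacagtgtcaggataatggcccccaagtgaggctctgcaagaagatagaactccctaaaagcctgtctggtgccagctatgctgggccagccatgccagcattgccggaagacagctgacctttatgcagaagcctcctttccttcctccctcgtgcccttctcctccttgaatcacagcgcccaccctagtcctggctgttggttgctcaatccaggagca
Axl (GRCr8 chr1:90423960-90424259, minus strand): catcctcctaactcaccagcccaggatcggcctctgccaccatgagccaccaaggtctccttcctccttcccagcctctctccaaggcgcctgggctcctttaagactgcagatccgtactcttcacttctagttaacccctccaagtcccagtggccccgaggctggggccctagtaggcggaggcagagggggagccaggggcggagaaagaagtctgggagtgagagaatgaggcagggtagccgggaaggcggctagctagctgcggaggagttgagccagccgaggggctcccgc
Cd68 (GRCr8 chr10:54882392-54882691, minus strand): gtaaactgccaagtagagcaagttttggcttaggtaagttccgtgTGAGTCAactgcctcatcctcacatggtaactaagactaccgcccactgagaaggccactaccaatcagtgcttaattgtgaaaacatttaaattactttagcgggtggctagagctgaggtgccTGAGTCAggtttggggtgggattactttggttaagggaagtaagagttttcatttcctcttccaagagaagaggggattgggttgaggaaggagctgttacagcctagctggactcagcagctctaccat
Gpnmb (GRCr8 chr4:79340878-79341177, plus strand): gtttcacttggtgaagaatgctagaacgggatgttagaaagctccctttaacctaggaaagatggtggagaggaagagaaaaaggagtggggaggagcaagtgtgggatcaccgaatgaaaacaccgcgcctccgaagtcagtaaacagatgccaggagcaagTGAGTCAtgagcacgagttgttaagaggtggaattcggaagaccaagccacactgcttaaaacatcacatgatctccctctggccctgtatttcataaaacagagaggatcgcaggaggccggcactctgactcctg

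The Cd68 window held 2 AP-1 matches, whose first bases lay 205 and 80 bases before the start. The Gpnmb window held 1, at 87 bases before the start, and the Itgax window held 1, at 56 bases. In all, 3 of the 8 windows held TGACTCA on either strand, against 4.63% of the 33469 windows in the table. The ETS element AGGAAGT, of the kind that the myeloid factor PU.1 binds, was present in 8.41% of all windows and in 1 of the 8, that of Cst7, at 35 bases before the start on the strand of the gene. TCACGTGA, an element of the lysosomal factors TFEB and MITF, is its own reverse complement. It was found in 0.777% of all windows and in 0 of the 8. Other forms of the element were not searched. No 2 of these matches overlapped. These matches describe letters and say nothing about binding in these rats.

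Total expected counts ran from 15118203 to 18533520 per library, and 12161 genes were tested. Untreated replicate 3 stood apart in several lists. The 18 homeostatic microglia genes of the list used as a reference, such as P2ry12, Tmem119 and Csf1r, summed to 1466 CPM there (counts scaled to library size), against 792.5 in the lowest untreated library and 849.9 to 1189 under RG2833. The same library had the highest untreated sums of astrocyte (10588 CPM), endothelial (459.1 CPM) and oligodendrocyte precursor markers (1264.6 CPM), and the lowest sums of all 10 for neuronal (7264 CPM) and oligodendrocyte markers (7533 CPM). Untreated replicate 2 and RG2833 replicate 1 held choroid plexus RNA, with marker sums of 11136 and 12046 CPM, and untreated replicate 2 also had the highest sums of fibroblast and macrophage markers. All 10 neuronal markers, among them Slc17a7 and Camk2a, were tested and summed to 7264 to 9494 CPM.

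None of the 8 tested genes differed between RG2833 and untreated rats beyond the spread between rats. By edgeR's quasi-likelihood test, 0 of the 8 had an adjusted p below 0.05, as did 0 of the 12161 genes tested (0%). At an unadjusted p below 0.05 the members counted 0, against 688 of all genes (5.66%). The 2 groups of 5 overlapped for every one of the 8 genes, whereas they did not overlap for 1.00% of all genes. The fold changes were higher under RG2833 for 3 genes and lower for 5, with a median log2 fold change of -0.05, against -0.011 over all genes. The members' median changed sign with 1 library left out, to 0.031 without untreated replicate 2, 0.020 without untreated replicate 3 and 0.020 without RG2833 replicate 4, and it was -0.123 without untreated replicate 4. It was 0.012 by limma-voom with library weights. In absolute size the median was 0.143 on the log2 scale, against 0.0898 over all genes. No member was called by DESeq2 or by limma-voom with library weights either.

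**Figure D1:**
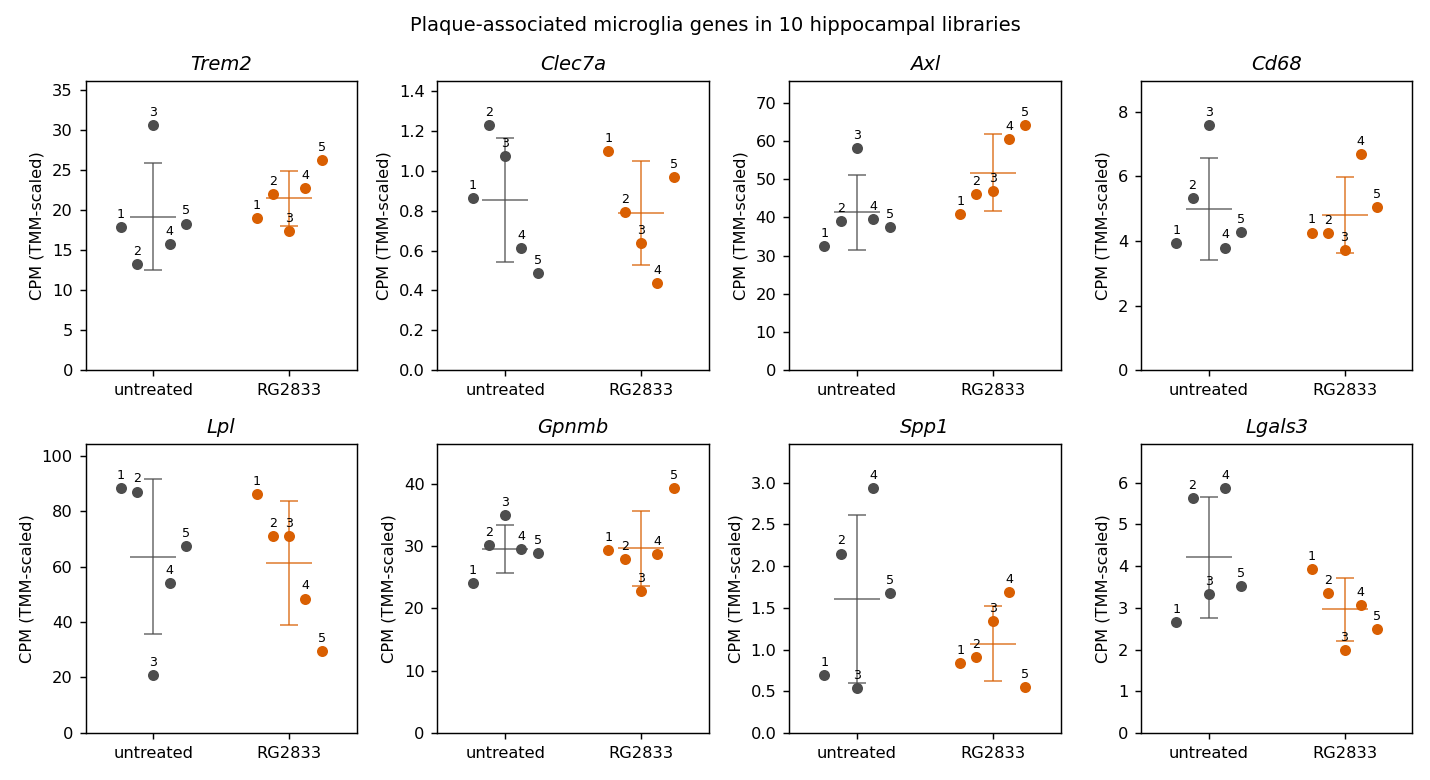
Levels of the 8 tested genes in CPM on TMM-scaled library sizes, 1 point per rat with its replicate number, untreated in grey and RG2833 in orange; the horizontal line is the group mean and the bars are the SD (n = 5). The groups overlap in every panel, and untreated replicate 3 is the highest library for Trem2 and Cd68 and the lowest for Lpl and Spp1.

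Of the surface receptors, Trem2 was measured at 17.8, 13.3, 30.6, 15.7 and 18.3 CPM in untreated replicates 1 to 5, and at 18.97, 21.9, 17.3, 22.7 and 26.2 CPM in RG2833 replicates 1 to 5. Untreated replicate 3 was the highest of all 10, and every RG2833 library lay within the untreated range. The means were 19.1 ± 6.69 CPM (SD, n = 5) untreated and 21.4 ± 3.44 CPM (SD, n = 5) with RG2833, a log2 fold change of 0.16 (SE 0.21, 95% interval -0.30 to 0.62, edgeR adjusted p = 0.946). An exact two-sided permutation test over all regroupings of 5 and 5 gave p = 0.373. Without untreated replicate 3, the untreated mean was 16.3 ± 2.30 CPM (SD, n = 4) and the log2 fold change was 0.39 (SE 0.13, edgeR adjusted p = 0.311). It was 0.056 without untreated replicate 2, 0.10 without untreated replicate 4 and 0.083 without RG2833 replicate 5, so single libraries moved the Trem2 difference by over 1.5 times in either direction, and it passed the adjusted threshold in none of these fits.

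Axl, a receptor tyrosine kinase of the TAM family that binds Gas6 and takes part in the uptake of dead cells, was the member with the highest fold change. Its levels were 32.6, 38.9, 58.1, 39.6 and 37.3 CPM in the untreated libraries and 40.9, 46.1, 46.8, 60.6 and 64.1 CPM in the RG2833 libraries. RG2833 replicates 4 and 5 were the highest of the 10, and untreated replicate 3 came next, so the groups overlapped through that 1 untreated library. Every RG2833 library was above the other 4 untreated libraries. The means were 41.3 ± 9.77 CPM (SD, n = 5) and 51.7 ± 10.1 CPM (SD, n = 5), a log2 fold change of 0.32 (SE 0.17, 95% interval -0.05 to 0.70, edgeR adjusted p = 0.841), and the exact two-sided permutation p was 0.119. Of the 5 RG2833 libraries, 4 were above the untreated mean. Without untreated replicate 3 the log2 fold change was 0.48 (SE 0.13, edgeR adjusted p = 0.280), with an untreated mean of 37.1 ± 3.14 CPM (SD, n = 4). In that comparison of 9 libraries, Axl and Trem2 were the 2 of 8 members with an unadjusted p below 0.05, where 14.2% of all genes tested also had one. Single members also had one in other fits: Lgals3 without untreated replicate 1 (5.21% of all genes), Lgals3 and Axl without RG2833 replicate 1 (7.59%), and Axl with limma-voom and library weights (10.4%), none of them past the adjusted threshold.

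Clec7a encodes dectin-1, a lectin receptor of myeloid cells for beta-glucans. It was scarce: 0.866, 1.23, 1.07, 0.612 and 0.489 CPM untreated, and 1.10, 0.795, 0.640, 0.438 and 0.968 CPM with RG2833. These values rest on 76 reads over the untreated group and 61.97 expected reads over the RG2833 group. The groups were interleaved, with untreated replicate 2 highest, RG2833 replicate 1 next and RG2833 replicate 4 lowest. The 2 highest were the libraries that held choroid plexus RNA, and the part of that tissue in the Clec7a values was not tested. The log2 fold change was -0.12 (SE 0.32, 95% interval -0.84 to 0.59, edgeR adjusted p = 0.980), an interval that spans changes in both directions.

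None of the lysosomal and lipid genes passed the test either. Cd68, a glycoprotein of the lysosomal membrane used to mark phagocytic cells, stood at 3.92, 5.33, 7.58, 3.80 and 4.29 CPM untreated and at 4.26, 4.26, 3.71, 6.70 and 5.05 CPM with RG2833. Untreated replicate 3 and RG2833 replicate 4 were high, and the other 8 libraries lay between 3.71 and 5.33 CPM. Its means of 4.98 ± 1.57 and 4.80 ± 1.17 CPM (SD, n = 5 each) gave a log2 fold change of -0.06 (SE 0.23, edgeR adjusted p = 0.991). That value changed sign without untreated replicate 3, to 0.14.

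Gpnmb, a transmembrane glycoprotein of endosomes and lysosomes, had the smallest difference between groups of the 8. The untreated libraries held 24.1, 30.2, 34.9, 29.6 and 28.9 CPM and the RG2833 libraries held 29.4, 28.0, 22.8, 28.7 and 39.4 CPM. RG2833 replicates 3 and 5 were the lowest and the highest of the 10, so the treated group enclosed the untreated one. Both means were 29.6 CPM, with SDs of 3.85 and 6.03 (n = 5 each), and the log2 fold change was 0.0034 (SE 0.14, 95% interval -0.30 to 0.31, edgeR adjusted p = 0.999).

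Lpl, lipoprotein lipase, releases fatty acids from triglyceride particles. Its levels were 88.4, 87.1, 20.8, 53.9 and 67.6 CPM untreated and 86.3, 70.9, 71.0, 48.5 and 29.4 CPM with RG2833. The highest library was 4.255 times the lowest, and the lowest, untreated replicate 3, was the library in which Trem2 and Cd68 were highest. RG2833 replicate 5, the next lowest for Lpl, was the highest for Axl and Gpnmb. Its mean was 63.6 ± 27.9 CPM untreated and 61.2 ± 22.3 CPM with RG2833 (SD, n = 5 each), which is a log2 fold change of -0.05 (SE 0.38, edgeR adjusted p = 0.996). Cst7, which encodes cystatin F, an inhibitor of lysosomal cysteine proteases, was near the limit of detection. It had 0, 2, 1, 0 and 0 reads in the untreated libraries and 0, 2, 0, 0 and 0 in the RG2833 libraries, below the limit that a count of 0 allows (3 counts, or 0.154 to 0.207 CPM by library). No fold is given for it, and a difference was not detectable at this depth.

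The secreted members, Lgals3 and Spp1, had lower means under RG2833, and neither difference passed the test. Lgals3 encodes galectin-3, a lectin of activated phagocytes that binds beta-galactosides. It was measured at 2.65, 5.63, 3.34, 5.88 and 3.53 CPM untreated and at 3.94, 3.35, 1.98, 3.07 and 2.49 CPM with RG2833. Untreated replicates 2 and 4 were the highest of the 10, and 0 of the 5 RG2833 libraries reached the untreated mean. The means were 4.21 ± 1.45 and 2.97 ± 0.757 CPM (SD, n = 5 each), which gave a log2 fold change of -0.50 (SE 0.26, 95% interval -1.08 to 0.07, edgeR adjusted p = 0.841). The exact two-sided permutation p was 0.151. Of 16 macrophage and monocyte markers, 6 were tested; all 6 had lower means with RG2833 and 0 passed the adjusted threshold. Their summed level was 71.3 CPM in untreated replicate 2, 18.02 to 31.6 CPM in the other untreated libraries and 19.89 to 30.56 CPM with RG2833. The part of those cells in the Lgals3 values was not tested.

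Spp1, osteopontin, is a secreted phosphoprotein that binds integrins. Its values were 0.692, 2.15, 0.537, 2.94 and 1.68 CPM untreated and 0.839, 0.909, 1.34, 1.69 and 0.553 CPM with RG2833, on 142 and 85 reads in all. Untreated replicate 4 was highest and untreated replicate 3 lowest, so the untreated group enclosed the treated one. The spread was wide, with the highest library at 5.47 times the lowest. The means were 1.60 ± 1.01 and 1.07 ± 0.449 CPM (SD, n = 5 each), which gave a log2 fold change of -0.58 (SE 0.47, 95% interval -1.62 to 0.46, edgeR adjusted p = 0.904). That interval holds large changes in both directions, and the value was -0.25 without untreated replicate 4.

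**Figure D2:**
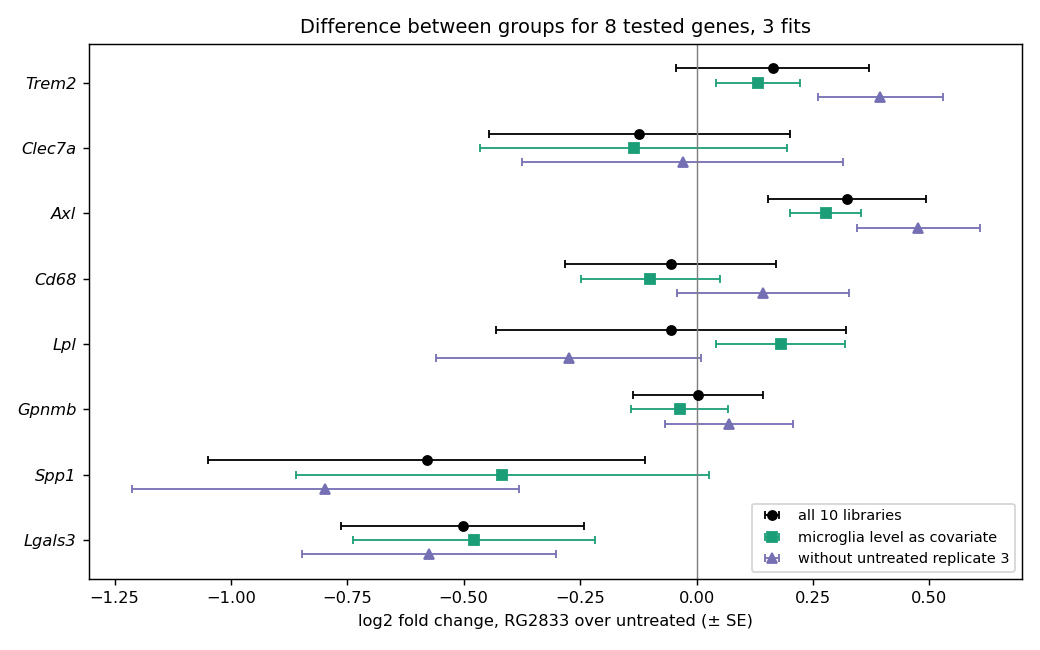
Log2 fold change of RG2833 over untreated for the 8 tested genes, with SE bars, in the fit of all 10 libraries (black), with the microglia reference level as a covariate (green) and without untreated replicate 3 (purple). Axl and Trem2 are above 0 and Lgals3, Spp1 and Clec7a are below 0 in all 3 fits. Lpl, Cd68 and Gpnmb change side, and no value passed the adjusted threshold.

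The next question was which of the genes moved from rat to rat with the level of homeostatic microglia genes in a library. The reference was the mean log2 CPM of the 18 homeostatic microglia genes, none of them a member. Trem2 moved with it (Pearson r = 0.901, adjusted permutation p = 0.00565; Spearman rho = 0.806, adjusted permutation p = 0.0487), as did Axl (r = 0.832, adjusted permutation p = 0.0124; rho = 0.867, adjusted permutation p = 0.0263). Cd68 passed by Pearson (r = 0.799, adjusted permutation p = 0.0312) and not by Spearman (rho = 0.467, adjusted permutation p = 0.316). The Cd68 call was also lost without untreated replicate 3 (r = 0.593, adjusted exact permutation p = 0.187), RG2833 replicate 4 (r = 0.809, adjusted exact permutation p = 0.0724) or RG2833 replicate 5 (r = 0.822, adjusted exact permutation p = 0.0511), which left 3 members passing each time. Lpl moved against it (r = -0.94, adjusted permutation p = 0.00754; rho = -0.891, adjusted permutation p = 0.0203). P-values were adjusted over all genes tested. Untreated replicate 3 and RG2833 replicates 4 and 5 were highest for the reference and also for the astrocyte, endothelial and oligodendrocyte precursor lists. The reference therefore does not measure microglia alone.

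The other 4 did not pass. Gpnmb had r = 0.686 (adjusted permutation p = 0.0833) and Spp1 had r = -0.517 (adjusted permutation p = 0.219). Lgals3 and Clec7a had r = -0.181 and 0.148. So 4 of 8 members passed by Pearson, where 33.8% of all genes did, and 3 of 8 by Spearman, where 15.8% did, which makes the counts no more than a description of the members. Untreated replicate 3 and RG2833 replicate 5 were the 2 libraries farthest from the median of the reference. Without them 0 of the members and 0% of all genes passed, with r = 0.736 for Trem2, 0.862 for Axl, 0.622 for Cd68 and -0.737 for Lpl over the 8 libraries left. The same 4 signs held, and the adjusted exact permutation p was 0.202 for Trem2, 0.117 for Axl, 0.300 for Cd68 and 0.191 for Lpl.

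**Figure D3:**
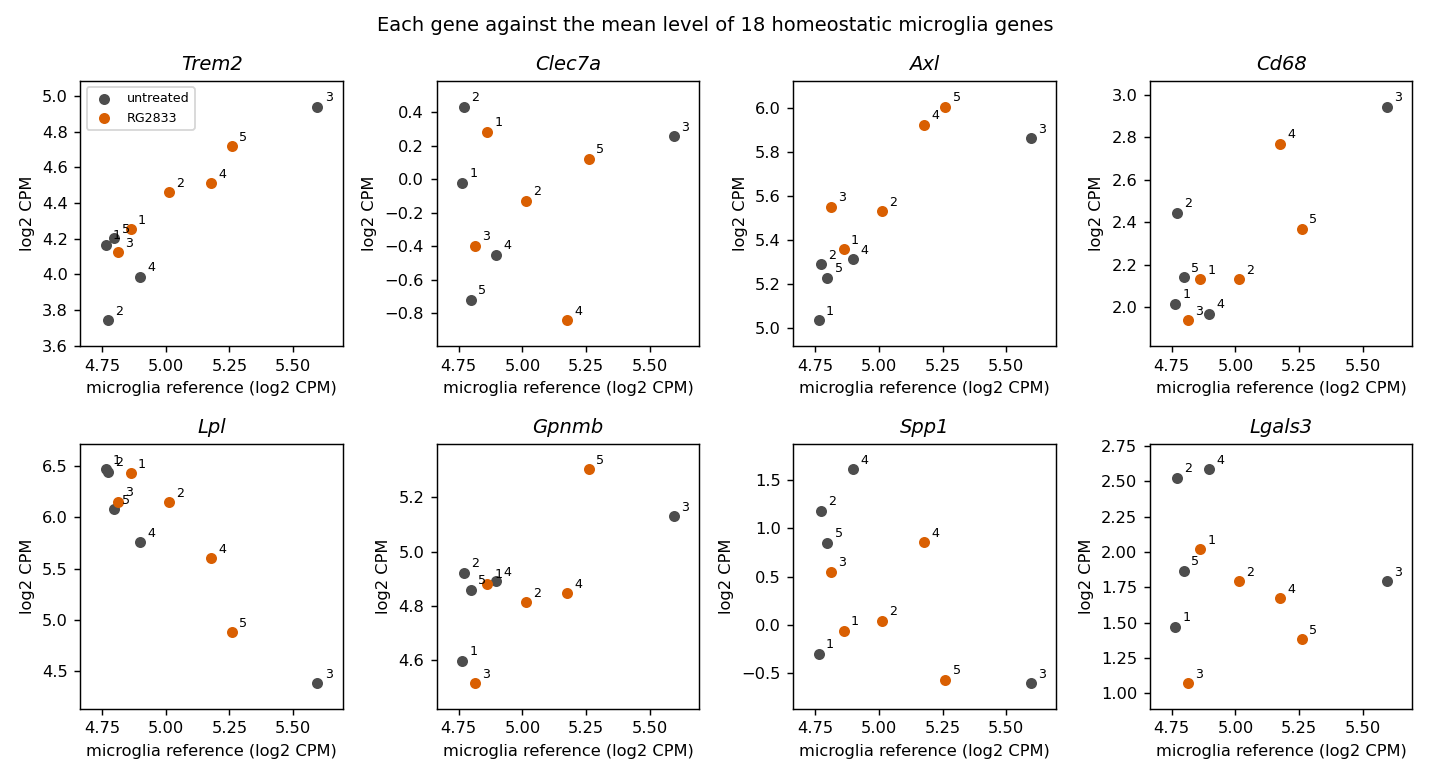
Log2 CPM of each of the 8 genes (vertical) against the mean log2 CPM of 18 homeostatic microglia genes (horizontal), 1 point per rat with its replicate number, untreated in grey and RG2833 in orange. Trem2, Axl and Cd68 are higher and Lpl is lower in libraries further right, and untreated replicate 3 is alone at the right edge of every panel.

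With that reference level as a covariate in the edgeR fit, Axl was the 1 member of 8 with an unadjusted p below 0.05, as 12.3% of all genes had. Its log2 fold change was 0.28 (SE 0.08, edgeR adjusted p = 0.220), close to that without the covariate. Lpl turned from -0.05 to 0.18 and Gpnmb from 0.0034 to -0.036, neither past the threshold.

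The members did not move as 1 block. Among their 28 pairs, Trem2 and Axl were the most alike over the 10 libraries (r = 0.771), followed by Cd68 with Axl (r = 0.67) and Trem2 with Cd68 (r = 0.605). Spp1 and Lgals3, the secreted pair, had r = 0.592 with each other and negative values with Trem2 (r = -0.73 and -0.468). Trem2 and Lpl were the most opposed (r = -0.818). These values share libraries and are given as a description.

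Set against 5 other cell-type references, chosen after the data were seen, Axl passed by Pearson's r with 3 of them. Its r was 0.938 with the astrocyte list (adjusted permutation p = 0.0053), 0.92 with endothelium (adjusted permutation p = 0.0136) and 0.851 with oligodendrocyte precursors (adjusted permutation p = 0.0187). By Spearman the astrocyte list alone of these 3 passed for Axl (rho = 0.903, adjusted permutation p = 0.0216); endothelium and oligodendrocyte precursors did not (adjusted permutation p = 0.0747 and 0.103). Of all genes, 18.8%, 27.9% and 30.3% passed by Pearson with astrocytes, endothelium and precursors, and 10.7%, 1.99% and 8.82% by Spearman. Means under RG2833 were higher for 9 of 9 tested astrocyte markers and 7 of 8 tested endothelial markers, where 46.5% of all genes had higher means, and 0 markers of either list passed the adjusted threshold. The astrocyte markers summed to 6832 to 10590 CPM untreated and 7874 to 11630 CPM with RG2833, and the endothelial ones to 238.4 to 459.1 and 288.5 to 497 CPM. Their part in the Axl values was not tested.

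By Pearson, Trem2 passed with the astrocyte list as well (r = 0.789, adjusted permutation p = 0.0395) and with oligodendrocyte precursors (r = 0.799, adjusted permutation p = 0.0261). Lpl was opposed to oligodendrocyte precursors (r = -0.91, adjusted permutation p = 0.00982) and to endothelium (r = -0.815, adjusted permutation p = 0.0293). Cd68 and Gpnmb passed with endothelium (r = 0.811 and 0.77, adjusted permutation p = 0.0304 and 0.0366). With neurons, 4.19% of all genes passed and Cd68 was the only member among them (r = -0.842, adjusted permutation p = 0.0456). With oligodendrocytes 0 members passed, as did 0% of all genes. Spp1, Lgals3 and Clec7a passed with none of the 6 lists. Of the calls in this paragraph, Lpl with oligodendrocyte precursors was the 1 that also passed by Spearman, and Lpl with astrocytes passed by Spearman (rho = -0.83, adjusted permutation p = 0.0484) and not by Pearson (r = -0.723, adjusted permutation p = 0.0624). The former had rho = -0.976 (adjusted permutation p = 0.0081). With neurons 2.61% of all genes passed by Spearman. Without the 2 libraries farthest from each list's median, 0 members passed with any of the 6 lists; of all genes 2.19% passed with astrocytes and 0% with each of the other 5, so the count says nothing particular about the members. The r was then 0.871 for Axl with astrocytes (adjusted exact permutation p = 0.0662), -0.957 for Lpl with oligodendrocyte precursors (adjusted exact permutation p = 0.106) 0.374 for Gpnmb with endothelium (adjusted exact permutation p = 0.640) and -0.406 for Lpl with endothelium (adjusted exact permutation p = 0.618).

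**Figure D4:**
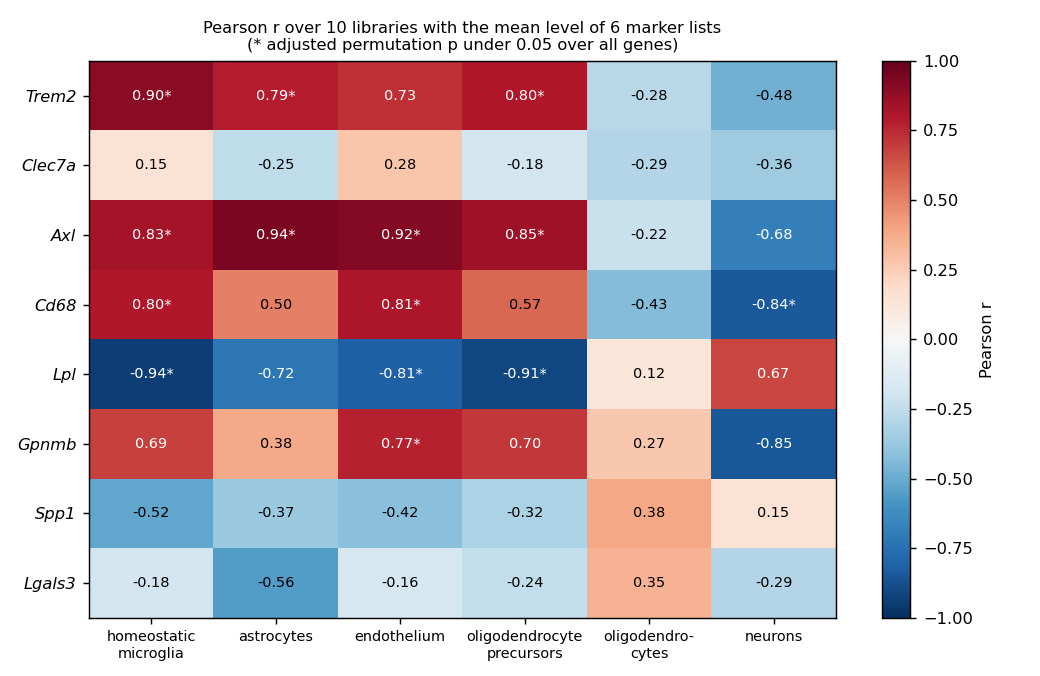
Pearson r over the 10 libraries between each of the 8 genes (rows) and the mean log2 CPM of 6 cell-type marker lists (columns), coloured from -1 (blue) to 1 (red), with a star where the adjusted permutation p over all genes was below 0.05. Axl carries stars for 4 lists, and Spp1, Lgals3 and Clec7a carry none.

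For each tested gene, the 3 other genes with the highest r over the 10 libraries were listed, as a description. They were picked from all named genes tested, so a high r does not place a pair in the same cell type. Trem2 was most like Fgr (r = 0.971), a kinase of myeloid cells, then Fcer1g (0.97), the signalling chain of Fc receptors, and Nmt2 (0.969). Axl was most like Inppl1 (0.989), the endothelial adhesion gene Esam (0.982) and Phyhd1 (0.98). Cd68 was most like Srebf1 (0.957), a regulator of lipid synthesis, with Rcsd1 (0.955) and Dock8 (0.949), a gene of leukocyte migration. Gpnmb had Slc16a4 (0.93), Llph (0.927) and RT1-T24-4 (0.923). Lpl had Ciao1 (0.987), Kctd6 (0.987) and Laptm4b (0.98). Lgals3 had Dynlrb2 (0.948), Fam167a (0.938) and Selk (0.933). Spp1 had Lrrcc1 (0.905), Dapk2 (0.879) and Ift81 (0.863), and Clec7a had Dysf (0.871), Tada2a (0.864) and Plagl2 (0.842).

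Around Trem2, 18 adaptors, kinases, sheddases and ligands were listed and all 18 were tested. None passed: 13 had higher and 5 lower means under RG2833, with a median log2 fold change of 0.09. That median became 0.21 when untreated replicate 3 was left out and 0.037 when untreated replicate 1 was. With RG2833 replicate 4 or 5 left out it was 0.032 or 0.043. The 2 with the smallest p were Plcg2, the phospholipase downstream of Syk, and Apoe, the main lipid carrier of the brain and a ligand of Trem2. Plcg2 stood at 7.97 ± 0.956 CPM untreated and 6.73 ± 1.02 CPM with RG2833 (SD, n = 5 each; log2 fold change -0.24, SE 0.13, edgeR adjusted p = 0.841). Apoe stood at 5732 ± 1290 and 6928 ± 1038 CPM (SD, n = 5 each; log2 fold change 0.27, SE 0.16, edgeR adjusted p = 0.841); without untreated replicate 3 its log2 fold change was 0.42 (edgeR adjusted p = 0.280).

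Among 40 further plaque-associated genes, such as cathepsins, chemokines and the tetraspanins Cd9 and Cd63, 37 were in the tables and 30 were tested. Of these, 16 had higher and 14 lower means, 0 passed and the median log2 fold change was 0.04. With 1 library left out that median lay between -0.0094 (untreated replicate 1) and 0.10 (untreated replicate 3), and it was also below 0 without untreated replicate 4 or 5. With no filter on low counts it was -0.019. Cadm1, an adhesion molecule also made by neurons, was named with Apoe as having the smallest p (log2 fold change 0.22, SE 0.13, edgeR adjusted p = 0.841). Of the 18 homeostatic microglia genes, 11 were higher and 7 lower with a median of 0.04. With 1 library left out this lay between -0.047 (RG2833 replicate 5) and 0.23 (untreated replicate 3), and it was also below 0 without untreated replicate 2 or 5. Ly86 and Olfml3 had the smallest p there (log2 fold changes 0.24 and -0.33, SE 0.22 and 0.32), and Ly86 ran from 0.13 (without untreated replicate 1) to 0.38 (without untreated replicate 3).

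**Figure D5:**
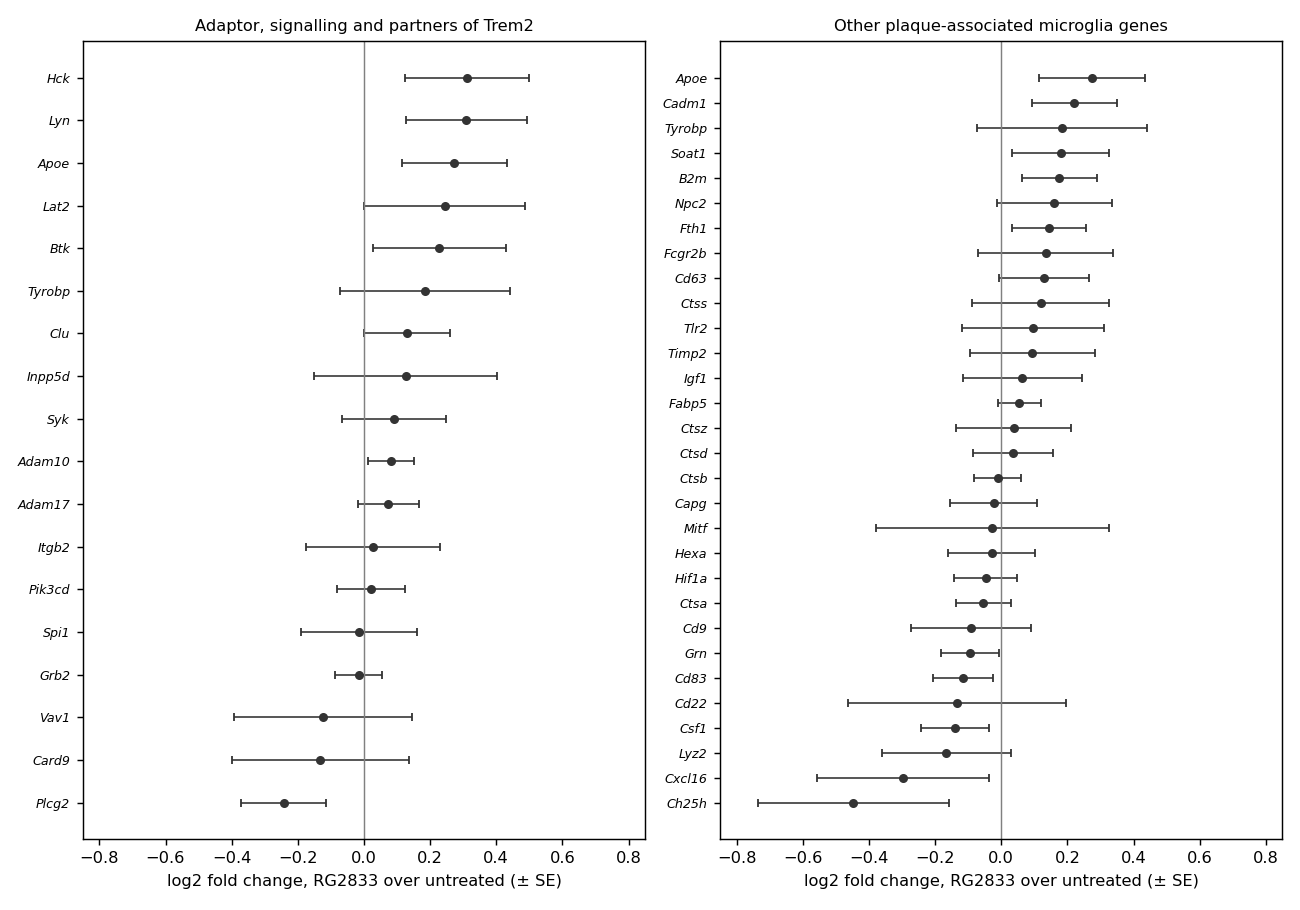
Log2 fold change of RG2833 over untreated with SE bars for the 18 genes around Trem2 (left) and the 30 tested further plaque-associated genes (right), sorted by value. The values lie between -0.45 and 0.31, and none of the genes passed the adjusted threshold.

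In the macrophage list 3 of 6 genes, Mrc1, F13a1 and Cd163, had unadjusted p below 0.05, as did 5.66% of all genes, with log2 fold changes of -1.34, -1.52 and -1.19 (SE 0.52, 0.62 and 0.52, edgeR adjusted p = 0.841 for each). Without untreated replicate 2, which held the most of these markers, the values were -0.57, -0.71 and -0.46. In the astrocyte list 2 of 9 had one: the connexins Gjb6 and Gja1, with log2 fold changes of 0.60 and 0.32 (SE 0.19 and 0.12, edgeR adjusted p = 0.841 for both). In the remaining lists 0 genes had an unadjusted p below 0.05. There, 2 of 10 oligodendrocyte, 7 of 8 oligodendrocyte precursor, 2 of 10 neuronal, 1 of 9 fibroblast and 7 of 13 choroid plexus genes were higher, where 46.5% of all genes were. The 2 genes of smallest p in each, with their log2 fold changes, were Cnp and Mog of oligodendrocytes (-0.22 and -0.25), Ptprz1 and Olig2 of precursors (0.28 and 0.19), Esam and Pecam1 of endothelium (0.34 and 0.31), and Tubb3 and Map2 of neurons (-0.18 and 0.43). Those of fibroblasts were Col1a2 and Col1a1 (-1.82 and -1.62), which were -0.015 and 0.089 without untreated replicate 2, and those of choroid plexus were Otx2 and Enpp2 (-0.41 and -0.29). Other values also moved with 1 library left out. Cnp and Mog were at -0.12 and -0.13 without untreated replicate 5, and Esam and Pecam1 at 0.53 and 0.54 without untreated replicate 3.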

How the data were processed

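Per the labels' protocols, RNA of 10 left hippocampi was sequenced after a stranded mRNA preparation. The authors deposited RSEM expected counts per gene, estimates that need not be whole (11.6% were not; 1 of 90 member values). They also deposited a signal table of TMM-normalized CPM, of which 100% of values were whole multiples of a single read (tolerance 0.02). The submitters' processing notes name bcl2fastq 2.17, Bowtie2 2.1.0, RSEM 1.2.15, edgeR and rn6, with no role or order.

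Expected counts were rounded and fitted with edgeR 4.0.16 in R 4.3.3 (filterByExpr, minimum count 10 and total 15; TMM; quasi-likelihood F test; Benjamini-Hochberg over 12161 genes, 70.8%; threshold 0.05). CPM printed use TMM-scaled sizes of the tested genes; the authors' CPM were 0.9866 to 1.029 times these. Log2 CPM used a prior count of 2. Correlations used 100000 permutations (exact with 8 or 9 libraries); exact tests used all regroupings of 5 and 5 (smallest p 0.00794). No replicate origin beyond the rat is labelled, so p-values measure the spread between these libraries. Members and lists were chosen with earlier results of these data known. All members were named; other lists contribute genes with unadjusted p below 0.05, or otherwise the 2 with the smallest. Scripts were tested on simulated data. Alternatives covered normalization, filter, tool (DESeq2 1.42.0, limma 3.58.1), replicate block, covariate, recovered reads and each library left out.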

Additional observations from a re-analysis of the deposited data

Results flagged for a closer look

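For 38 sets of 5 libraries (the 8 tested members and 11 marker lists in each group), the gap of the highest or lowest library to its neighbour, over the range of the group on log2 CPM (the mean log2 CPM of a list), was compared with Dixon's 95% critical value of 0.71. On that scale no member exceeded it and 4 lists did, where chance gives 1.9. On unlogged CPM, which weighs high values more, Axl in untreated replicate 3 lay above it too, as did the sums of further lists, such as choroid plexus in untreated replicate 2. Untreated replicate 3 stood apart in its group for the genes around Trem2 (ratio 0.849) and for homeostatic microglia (0.838). Untreated replicate 2 stood apart for fibroblast and meningeal genes (0.74), and RG2833 replicate 1 for choroid plexus genes (0.735). The values of Trem2, Axl and Cd68 with and without untreated replicate 3 are given with the results.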

How the results depend on the processing

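No member was called under any alternative run. The number of genes called was 0 under all but DESeq2, which called 7. Replicate numbers did not pair the rats (r of same-numbered libraries -0.487 to -0.0339), and with the replicate block 0 genes were called and Gpnmb was at -0.0073. At an unadjusted p below 0.05 the 688 genes became 401 with the replicate block, 1263 with limma-voom and library weights together, 1494 with the microglia covariate, and 375 (without RG2833 replicate 4) to 1732 (without untreated replicate 3) with 1 library left out. Reads recovered from the authors' CPM, an alternative added after seeing the data, equalled the rounded counts for 99.913% to 99.965% of genes by library and gave 0 called genes. Under limma-voom with library weights, list medians were 0.12 for homeostatic microglia, 0.16 for the genes around Trem2 and 0.087 for the further plaque genes. Gpnmb changed sign with upper quartile scaling (-0.0039), limma-voom with library weights (-0.023) and the microglia covariate (-0.036). Limma-voom with weights also gave the other sign for Cd68 (0.048), Clec7a (0.13) and Olfml3 (0.084). Cd68 was at 0.0030 without the 2 choroid-rich libraries, and Lpl at 0.18 with the covariate. With 1 library left out in turn, log2 fold changes ran from 0.056 to 0.39 for Trem2, 0.24 to 0.48 for Axl, -0.80 to -0.25 for Spp1, -0.63 to -0.35 for Lgals3, -0.20 to 0.14 for Cd68, -0.27 to 0.051 for Clec7a, -0.12 to 0.085 for Gpnmb, -0.27 to 0.13 for Lpl, -0.47 to 0.036 for Olfml3, -1.87 to 0.089 for Col1a1, -2.52 to 1.75 for Enpp2 and -3.90 to 1.48 for Otx2, and r with the microglia reference from -0.169 to 0.345 for Clec7a. Without the 2 libraries farthest from its median, the number of members passing with that reference was 0 instead of 4. The r was then -0.498 for Clec7a, 0.086 for Spp1 and 0.274 for Gpnmb. The cause of these changes was not tested. Clec7a has no value under the filter of CPM over 1. Depth limits Cst7, with 3 untreated and 2 RG2833 reads in all.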
